A study of Mus musculus with 11 samples.

Results

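Kdr, Flt1, Flt4, Tek, Tie1, Angpt1, Vegfa, Pecam1, Cspg4 and Pdgfrb were followed in mesenchymal progenitors sorted from mouse skeletal muscle and in whole tibialis anterior muscle. These 10 genes, chosen by their symbols as vascular receptors, their ligands and markers of mural cells, are among 24421 gene symbols counted in both materials. The mice carried Hic1-CreERT2, a tamoxifen-inducible Cre recombinase driven from the Hic1 locus, together with a tdTomato reporter, and they were given tamoxifen. WT/flox mice also held 1 Ctnnb1 allele with a floxed exon 3, and WT mice held none; Cre and reporter are given for the series, not for each animal. Recombination of that allele leaves a stable beta-catenin. The progenitors were sorted as CD45-, CD31-, Sca1+, tdTomato+ and alpha7- cells from 3 WT/flox mice (74A1 and 72B7 at day 14 after tamoxifen, 74A3 at day 56) and 3 WT mice (72B8, 74A2 and 73C3 at day 14). The whole muscle came from 3 WT/flox mice (71B3, 71B4 and 71B5) and 2 WT mice (73A5 and 73A7), at day 56 in both genotypes. The labels do not give the age of the mice, and the cells in which Cre acts are those that use the Hic1 locus, while a lysate holds all cells of the muscle.

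Kdr (VEGFR2), Flt1 (VEGFR1) and Flt4 (VEGFR3) are the tyrosine kinase receptors of the VEGF family, and Tek (Tie2) and Tie1 are those of the angiopoietin system. In adult muscle all 5 are best known from endothelial cells, whereas their ligands Vegfa and Angpt1 are made mostly by the cells around vessels, muscle fibres included. Pecam1 encodes CD31, the endothelial surface protein that the sort selected against, while Cspg4 (NG2) and Pdgfrb mark pericytes and other mural cells, and Pdgfrb is also common in fibroblasts. The comparison asks which of these transcripts differ between the genotypes in each material, and whether transcripts of vascular cells move with them.

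In the sorted progenitors, Kdr was 18.8-fold higher in WT/flox than in WT cells, while Cspg4 was 4.72-fold lower and Tek 2.48-fold lower. These 3 were the members, of 9 tested, that passed the edgeR test, and their libraries did not overlap between the genotypes. Background rates were 3.66% of 12392 genes called (2.34% higher and 1.32% lower) and 16.9% not overlapping. The members were chosen with earlier results of these data known, so their counts beside these rates are a description. Flt1, Tie1, Pecam1, Vegfa, Angpt1 and Pdgfrb overlapped between the genotypes, and Flt4 was removed by the filter on low counts. Over the 9 tested members the median log2 fold change of WT/flox over WT was -0.17, beside 0.00 over all genes.

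The windows just upstream of the transcription start of these 3 genes are shown because their transcripts differed with the Ctnnb1 genotype, and the TCF/LEF partners of beta-catenin bind sequences of the kind searched for here. They come from RefSeq promoter windows on GRCm38.p6, read 5′ to 3′ on the gene's strand, and stop before the first annotated exon base. The Kdr window is chr5:75978459-75978705 on the minus strand, the Tek window chr4:94739039-94739288 on the plus strand and the Cspg4 window chr9:56864854-56865032 on the plus strand.
Kdr: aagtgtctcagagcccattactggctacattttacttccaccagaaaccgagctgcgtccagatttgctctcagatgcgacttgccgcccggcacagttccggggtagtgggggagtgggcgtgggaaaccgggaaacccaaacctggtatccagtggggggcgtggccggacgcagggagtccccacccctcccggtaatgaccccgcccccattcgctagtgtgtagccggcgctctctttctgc
Tek: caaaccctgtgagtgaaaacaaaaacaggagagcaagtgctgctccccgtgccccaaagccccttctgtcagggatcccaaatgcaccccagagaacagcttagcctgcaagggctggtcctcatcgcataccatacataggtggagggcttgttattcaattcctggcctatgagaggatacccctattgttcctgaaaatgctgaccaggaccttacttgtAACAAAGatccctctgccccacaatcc
Cspg4: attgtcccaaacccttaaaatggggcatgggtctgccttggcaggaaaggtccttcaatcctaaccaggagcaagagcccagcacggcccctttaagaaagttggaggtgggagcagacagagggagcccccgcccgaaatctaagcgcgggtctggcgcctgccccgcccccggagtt
Capitals mark a TCF/LEF heptamer. The letters searched on both strands were AACAAAG and also ATCAAAG, further the form TACAAAG and the form TTCAAAG, which share their last letters, so a position matches no more than 1 of them. The Tek window held AACAAAG once, 20 bases before its end, and the Kdr and Cspg4 windows held none of these letters. Among all RefSeq promoter windows cut to the same length, 14.7% held a match at 247 bases (Kdr), 14.8% at 250 bases (Tek) and 11.4% at 179 bases (Cspg4). Promoter windows were found for 7 of the 10 genes.

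Libraries held 13119843 to 16805238 counts in progenitors and 16892158 to 19449227 in muscle. Ctnnb1 itself reached 378 to 424 CPM (counts brought to a common library size by TMM scaling) in WT/flox and 459 to 526 CPM in WT progenitors (edgeR adjusted p = 0.673), a sum over exons that does not check recombination of exon 3. The sorted cells carried the progenitor markers Gsn and Dcn at high levels, and 10 listed markers of these cells took 6.04% to 8.15% of counts in WT/flox and 7.67% to 9.16% in WT libraries. The deposited sample tables name 74A1 and 74A2 as female and the others as male. WT library 74A2 stood lowest of the WT progenitors in the endothelial marker list and in Kdr, Flt1, Tie1 and Pecam1, and highest in Cspg4, Pdgfrb and Vegfa. Without 74A2 the log2 fold change of WT/flox over WT was 3.85 for Kdr, -1.40 for Tek and -1.84 for Cspg4, and without 74A3, the 1 progenitor library of day 56, it was 4.28 for Kdr, -1.40 for Tek and -2.21 for Cspg4. All 6 of these values passed the edgeR test, with adjusted p-values of 1.7e-04 to 0.0202.

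**Figure D1:**
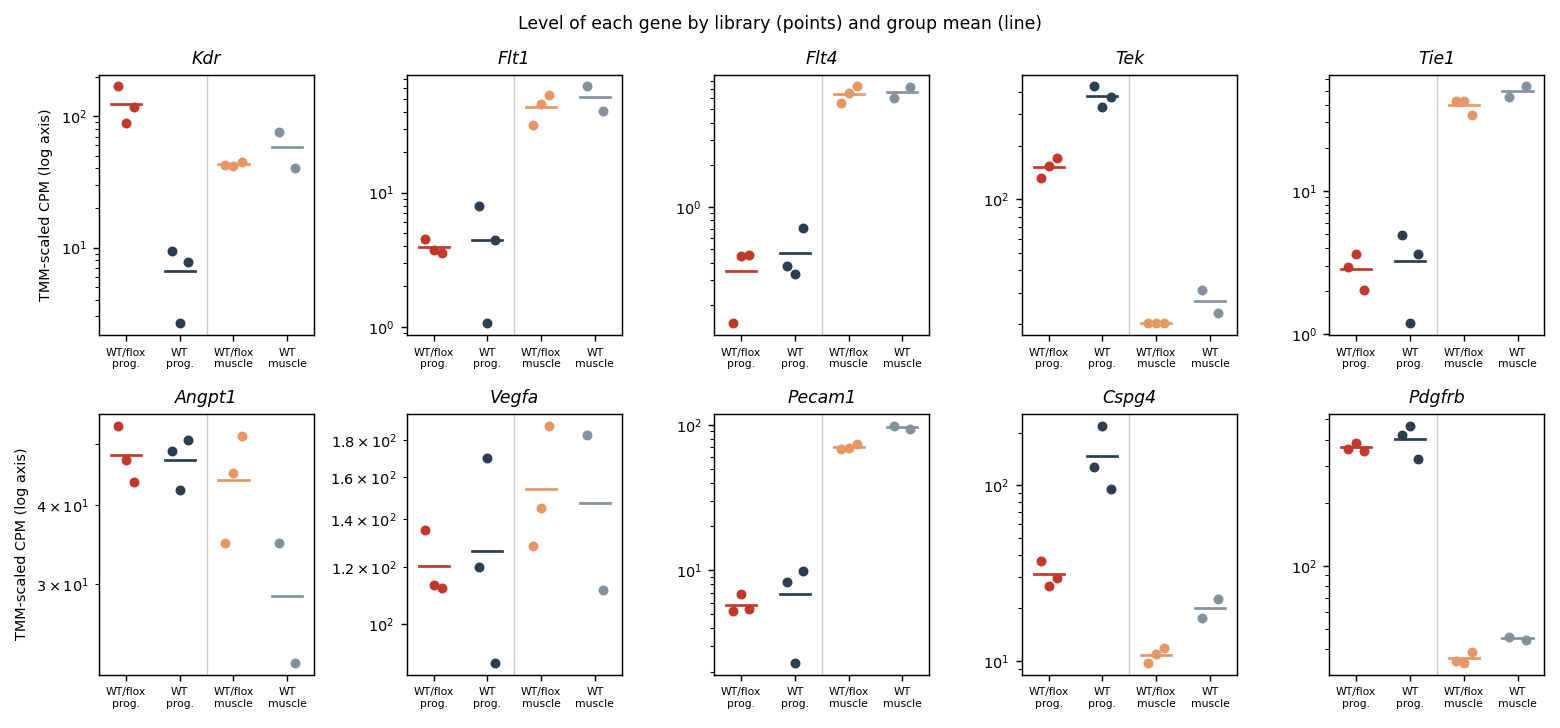
Level of each of the 10 genes in every library (points; TMM-scaled CPM, log axis) with the group mean (line), for WT/flox and WT progenitors (3 each) and WT/flox and WT muscle (3 and 2). The Kdr points of WT/flox progenitors, 88.9 to 169 CPM, lie above those of WT progenitors, 2.65 to 9.49 CPM, and the Tek and Cspg4 points lie below.

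Among the VEGF receptors, Kdr (ENSMUSG00000062960, GRCm38 chromosome 5, 75932827 to 75978458, minus strand) had 169, 88.9 and 117 CPM in the WT/flox progenitor libraries 74A1, 72B7 and 74A3. In the WT libraries 72B8, 74A2 and 73C3 it had 9.49, 2.65 and 7.82 CPM. The lowest WT/flox library thus stood far above the highest WT library. Means were 125 ± 40.4 CPM in WT/flox and 6.65 ± 3.57 CPM in WT (SD, n = 3 each), with a log2 fold change of 4.23 (SE 0.44, 95% interval 3.22 to 5.24, edgeR quasi-likelihood test with Benjamini-Hochberg adjustment, adjusted p = 0.00109). Within sex the log2 ratio of WT/flox over WT was 5.99 in females (1 library each) and 3.57 in males (2 each), and it was 4.27 with day 14 libraries only.

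Flt1 (ENSMUSG00000029648, GRCm38 chromosome 5, 147561604 to 147726011), the receptor that also binds Vegfa and Pgf as a decoy, was low in the sorted cells, with 4.48, 3.76 and 3.56 CPM in WT/flox and 7.91, 1.06 and 4.41 CPM in WT libraries. All 3 WT/flox values fell inside the WT range. The log2 fold change was -0.17 with a 95% interval of -1.40 to 1.06, which is wide (edgeR adjusted p = 0.993). Flt4 (ENSMUSG00000020357, GRCm38 chromosome 11, 49609263 to 49652739), the receptor of Vegfc in lymphatic endothelium, was counted 2, 6 and 6 times in WT/flox and 5, 5 and 12 times in WT libraries, and the filter on low counts removed it. Without that filter its log2 fold change was -0.45 (95% interval -1.90 to 0.99, edgeR adjusted p = 0.930). Kdr was thus the VEGF receptor whose counts stood above a trace in WT/flox progenitors.

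Of the angiopoietin receptors, Tek (ENSMUSG00000006386, GRCm38 chromosome 4, 94739289 to 94874976) was abundant in the progenitors of both genotypes. It had 132, 153 and 171 CPM in WT/flox libraries 74A1, 72B7 and 74A3 and 429, 329 and 374 CPM in WT libraries 72B8, 74A2 and 73C3. The highest WT/flox library lay below the lowest WT library. Means were 152 ± 19.0 CPM in WT/flox and 377 ± 49.9 CPM in WT (SD, n = 3 each), and Tek fell by 1.31 on the log2 scale (SE 0.18, 95% interval -1.72 to -0.90, edgeR adjusted p = 0.00319). The log2 ratio was -1.31 in females, -1.31 in males and -1.40 with day 14 libraries only. Tie1 (ENSMUSG00000033191, GRCm38 chromosome 4, 118471191 to 118490061), the partner receptor of Tek, had 2.94, 3.61 and 2.05 CPM in WT/flox and 4.90, 1.19 and 3.65 CPM in WT progenitors, which overlap (log2 fold change -0.17, 95% interval -1.22 to 0.87).

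Both ligands were well detected in the progenitors and did not pass the test. Angpt1 (ENSMUSG00000022309, GRCm38 chromosome 15, 42424723 to 42676977), the activating ligand of Tek, had 53.5, 47.2 and 43.5 CPM in WT/flox and 48.7, 42.3 and 50.8 CPM in WT progenitors. The interval of its log2 difference, -0.32 to 0.37 around 0.02, was the narrowest of the 9 tested members. Its locus overlaps the antisense gene Gm17473, and since the strand setting of the counting is not given in the sources used here, reads of the pair cannot be told apart. Vegfa (ENSMUSG00000023951, GRCm38 chromosome 17, 46016993 to 46032369), the main ligand of Kdr and Flt1, had 135, 113 and 112 CPM in WT/flox and 120, 170 and 88.4 CPM in WT progenitors, with a log2 fold change of -0.07 (95% interval -0.58 to 0.45). WT library 74A2 gave the highest of the 6 Vegfa values.

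Pecam1 (ENSMUSG00000020717, GRCm38 chromosome 11, 106654217 to 106750628), whose protein CD31 was used to gate cells out, remained detectable in every progenitor library, at 5.21, 6.85 and 5.38 CPM in WT/flox and 8.28, 2.32 and 9.88 CPM in WT. The WT/flox libraries lay within the WT range (log2 fold change -0.23, 95% interval -1.22 to 0.75). Transcripts of an endothelial gene were therefore present at a low level in both genotypes.

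The mural genes differed from each other. Cspg4 (ENSMUSG00000032911, GRCm38 chromosome 9, 56865033 to 56899870), the NG2 proteoglycan, had 37.0, 26.7 and 29.6 CPM in WT/flox libraries 74A1, 72B7 and 74A3 and 127, 219 and 95.6 CPM in WT libraries 72B8, 74A2 and 73C3. Each WT/flox library lay below each WT library, and the WT libraries were spread widely among themselves. Means were 31.1 ± 5.28 CPM in WT/flox and 147 ± 64.0 CPM in WT (SD, n = 3 each), and Cspg4 fell by 2.24 on the log2 scale (SE 0.30, 95% interval -2.90 to -1.58, edgeR adjusted p = 0.00269). The log2 ratio was -2.56 in females, -1.98 in males and -2.21 with day 14 libraries only. Pdgfrb (ENSMUSG00000024620, GRCm38 chromosome 18, 61045150 to 61085061), the PDGF-BB receptor, had 362, 386 and 355 CPM in WT/flox and 420, 467 and 323 CPM in WT progenitors. Its log2 fold change was -0.13 with a 95% interval of -0.55 to 0.29, so a fall of the size seen for Cspg4 lies outside that interval.

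**Figure D2:**
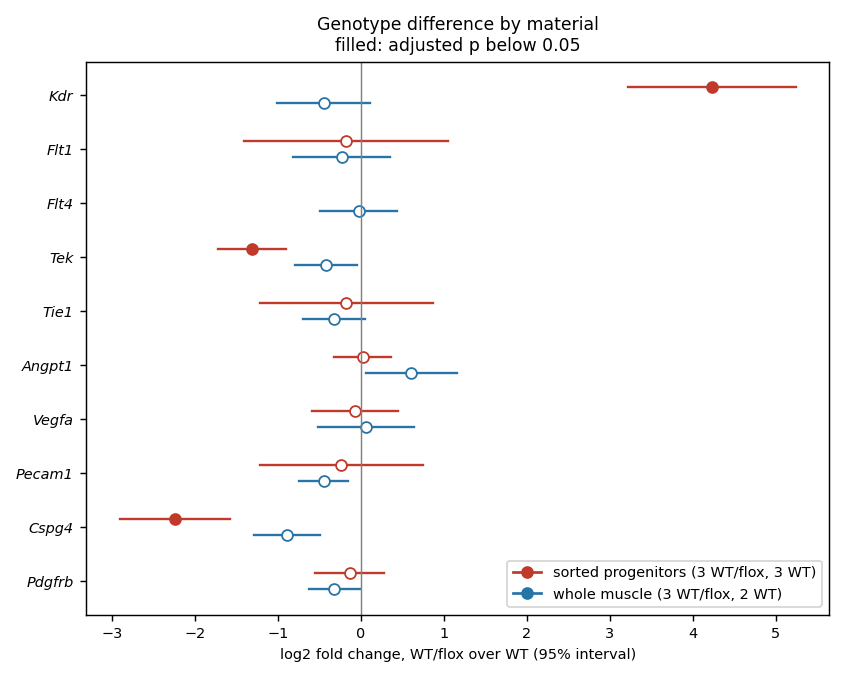
Log2 fold change of WT/flox over WT with its 95% interval for each gene, in progenitors (red, 3 WT/flox and 3 WT) and whole muscle (blue, 3 WT/flox and 2 WT); filled points have an edgeR adjusted p below 0.05. Kdr, at 4.23, Tek, at -1.31, and Cspg4, at -2.24, are filled in progenitors, no point is filled in muscle, and Flt4 has no progenitor point.

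Levels set per kilobase of exon put Kdr in a different place in the order of the 10 genes. In WT/flox progenitors the mean CPM per kilobase was 67.1 for Pdgfrb, 32.3 for Tek, 28.1 for Vegfa, 13.8 for Kdr, 9.23 for Angpt1 and 2.61 for Cspg4, and below 1 for Pecam1, Tie1, Flt1 and Flt4. In WT progenitors it was 80.1 for Tek, 73.6 for Pdgfrb, 29.4 for Vegfa, 12.3 for Cspg4, 9.08 for Angpt1 and 1.10 for Pecam1, with Kdr next at 0.737. Kdr thus stood in the fourth place in WT/flox cells and the seventh in WT cells, while Cspg4 stood in the sixth and the fourth. Neighbours whose libraries overlapped were Tek with Vegfa and Kdr with Angpt1 in WT/flox cells. In WT cells they were Tek with Pdgfrb, Cspg4 with Angpt1, and each neighbouring pair from Pecam1 down to Flt4.

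Whole muscle gave no change in these genes that passed the edgeR test, with 0 of 10 members called against 0.727% of 12654 genes (0.514% higher and 0.213% lower in WT/flox). At an unadjusted p under 0.05 there were 5 (Tek, Angpt1, Pecam1, Cspg4 and Pdgfrb), DESeq2 called 1 (Cspg4) and limma voom 0. The libraries of 6 members did not overlap between the genotypes, against 25.3% of all genes: Tek, Tie1, Pecam1, Cspg4 and Pdgfrb lay lower in WT/flox muscle and Angpt1 higher. The median log2 fold change was -0.32 over the 10 members and 0.00 over all genes. In muscle RNA, fewer cells of a type and less RNA per cell cannot be told apart.

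Cspg4 had 9.75, 10.9 and 11.8 CPM in WT/flox muscle libraries 71B3, 71B4 and 71B5 and 17.6 and 22.6 CPM in WT libraries 73A5 and 73A7. All WT/flox values were below both WT values, with a log2 fold change of -0.89 (SE 0.17, 95% interval -1.29 to -0.49, edgeR adjusted p = 0.0846). The DESeq2 adjusted p was 0.00619, edgeR without a filter on low counts gave 0.0444, and edgeR without 73A5 gave 0.0214, where the lone WT library is assumed to vary like the others. The counts behind these values were 185 to 247 in WT/flox and 294 to 353 in WT libraries.

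Pecam1 had 68.4, 69.3 and 73.9 CPM in WT/flox and 98.6 and 93.8 CPM in WT muscle (log2 fold change -0.45, SE 0.13, edgeR adjusted p = 0.259). Tek had 20.2, 20.3 and 20.2 CPM in WT/flox and 30.9 and 23.0 CPM in WT muscle (log2 fold change -0.41, edgeR adjusted p = 0.439), and Tie1 had 42.1, 42.3 and 34.1 CPM in WT/flox and 45.2 and 53.6 CPM in WT muscle. The WT/flox values of these 3 endothelial genes were below those of both WT libraries without passing the test. Beside them, the summed CPM of 14 other endothelial markers was 383 to 408 in WT/flox and 464 to 465 in WT muscle, while their share of library counts overlapped between the genotypes. Per 100 counts of these markers Pecam1 had 17.6 to 18.1 counts in WT/flox and 20.2 to 21.2 in WT muscle, and the part of endothelial cells in these differences was not tested.

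Pdgfrb had 35.3, 34.5 and 38.8 CPM in WT/flox and 46.0 and 44.3 CPM in WT muscle (log2 fold change -0.32, edgeR adjusted p = 0.488). Angpt1 had 34.9, 45.0 and 51.5 CPM in WT/flox and 34.9 and 22.6 CPM in WT muscle (log2 fold change 0.61, edgeR adjusted p = 0.438). The lowest WT/flox and the higher WT value of Angpt1 were almost equal, so its separation rests on a difference below the rounding used here. Kdr had 42.2, 41.5 and 45.1 CPM in WT/flox and 76.4 and 40.6 CPM in WT muscle, a log2 fold change of -0.45 (95% interval -1.01 to 0.12). That value turned on the WT libraries, since it was 0.080 without 73A5 and -0.83 without 73A7 (edgeR adjusted p = 0.0343).

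For Flt1, Flt4 and Vegfa the muscle libraries of the genotypes overlapped. Flt1 had 32.0, 45.7 and 53.4 CPM in WT/flox and 61.9 and 40.7 CPM in WT muscle, and Flt4 had 5.53, 6.56 and 7.27 CPM in WT/flox and 5.99 and 7.18 CPM in WT muscle. Vegfa, which muscle fibres make, had 128, 145 and 189 CPM in WT/flox and 183 and 111 CPM in WT muscle. Per kilobase, Vegfa was the highest of the 10 genes in muscle of both genotypes, at 35.9 in WT/flox and 34.4 in WT, followed by Pecam1 at 11.3 in WT/flox and 15.4 in WT, and Flt4 was the lowest at 0.784 in WT/flox and 0.799 in WT. The WT muscle IDs begin with 73A and the WT/flox IDs with 71B, so a difference between these series of animals and the genotype cannot be told apart.

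The genotype difference was larger in progenitors than in muscle for Kdr. A fit of all 11 libraries gave a difference between the log2 fold changes of 4.62 (SE 0.56, 95% interval 3.42 to 5.83, edgeR adjusted p = 0.00166), and Kdr was the 1 member of 10 called by this interaction, against 0.769% of 13781 genes (0.522% with a larger and 0.247% with a smaller value in progenitors). For Cspg4 the interaction was -1.39 (edgeR adjusted p = 0.139) and for Tek -0.95 (edgeR adjusted p = 0.150), so a difference between the materials was not called for these genes. Material, RNA kit and, for most libraries, day change together in that fit.

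The WT libraries, without the floxed allele, show in which material each gene is more abundant. WT progenitors stood above WT muscle in Tek (log2 difference 3.24), Pdgfrb (2.58) and Cspg4 (2.29), and below it in Kdr (-3.71), Flt1 (-4.11), Flt4 (-4.31), Pecam1 (-4.37), Tie1 (-4.50) and Vegfa (-0.81), with edgeR adjusted p-values up to 0.0129. The 9 of 10 members called (3 higher and 6 lower) compare with 76.1% of all genes, 38.6% higher and 37.5% lower, and Angpt1, at 0.15, was not called. The receptors Tek and Tie1 therefore lay on opposite sides, Tek with Cspg4 and Pdgfrb and Tie1 with Pecam1. A list of 12 other mural markers was lower in progenitors. It took 0.00893% to 0.0174% of counts in WT progenitors and 0.0505% to 0.0716% in WT muscle. Scaling by library totals alone raised the median of all genes to 0.75 from 0.09 and changed the genes called from 5321 higher and 5161 lower to 7161 higher and 3691 lower. Under it Vegfa was no longer called (-0.13) and Angpt1 was called higher in progenitors (0.81). Vegfa was also not called without 73A5 (-0.39).

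Transcripts of endothelial and mural cells were measured in the same libraries with lists that hold none of the 10 genes. The 14 endothelial markers together took 0.00312% to 0.00360% of counts in WT/flox and 0.00229% to 0.00617% in WT progenitors, against 0.0379% to 0.0464% in WT/flox and 0.0429% to 0.0455% in WT muscle. The 12 mural markers took 0.0115% to 0.0159% of counts in WT/flox and 0.00893% to 0.0174% in WT progenitors, against 0.0516% to 0.0721% in WT/flox and 0.0505% to 0.0716% in WT muscle. Both lists overlapped between the genotypes in the sorted cells, and for the endothelial list the overlap rests on WT library 74A2, at 0.00229%. The other WT libraries, 72B8 at 0.00617% and 73C3 at 0.00559%, lay above all 3 WT/flox libraries. The difference of WT/flox minus WT means was -0.00131 percentage points, and -0.00251 without 74A2, and the median log2 fold change of the 14 endothelial markers was -0.49. In the sorted cells none of the 14 endothelial markers was at 0 counts in any library and at most 1 of the 12 mural markers was. The exact permutation test over libraries gave p = 0.4 for the endothelial and p = 0.9 for the mural share in progenitors, two-sided, where the smallest p that 3 against 3 allows is 0.1.

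Single markers of those lists moved less evenly. In progenitors 1 of 14 endothelial markers was called, Plvap, a protein of fenestrated endothelium, with 3.64 to 4.35 CPM in WT/flox and 7.98 to 10.4 CPM in WT (log2 fold change -1.18, edgeR adjusted p = 0.0144), a call lost without 74A1 or 74A3. Ptprb, the phosphatase that acts on Tek, was the other of the 2 most abundant endothelial markers there, with means of 8.88 ± 1.61 CPM in WT/flox and 7.36 ± 4.07 CPM in WT. Of 10 mural markers tested 1 was called, Heyl, a Notch target, with 9.47 to 12.7 CPM in WT/flox and 14.8 to 32.4 CPM in WT (log2 fold change -1.26, edgeR adjusted p = 0.0371). The Heyl call was lost by limma voom and without any 1 of 74A2, 73C3, 74A1, 72B7 and 74A3. Abcc9, a channel subunit listed as a pericyte marker, was the most abundant mural marker. It averaged 43.6 ± 21.4 CPM in WT/flox and 29.8 ± 12.6 CPM in WT (SD, n = 3 each). Of all genes 3.66% were called in progenitors, 1.32% lower in WT/flox. At an unadjusted p under 0.05 there were 2 endothelial markers, Plvap and Ecscr, and 2 mural markers, Heyl and Kcnj8. Ecscr had a log2 fold change of -1.38 (edgeR adjusted p = 0.245) and Kcnj8 one of 1.45 (edgeR adjusted p = 0.266). The lymphatic list, with Prox1 and Lyve1 on top, summed to 7 to 13 counts in WT/flox and 10 to 20 counts in WT progenitors.

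**Figure D3:**
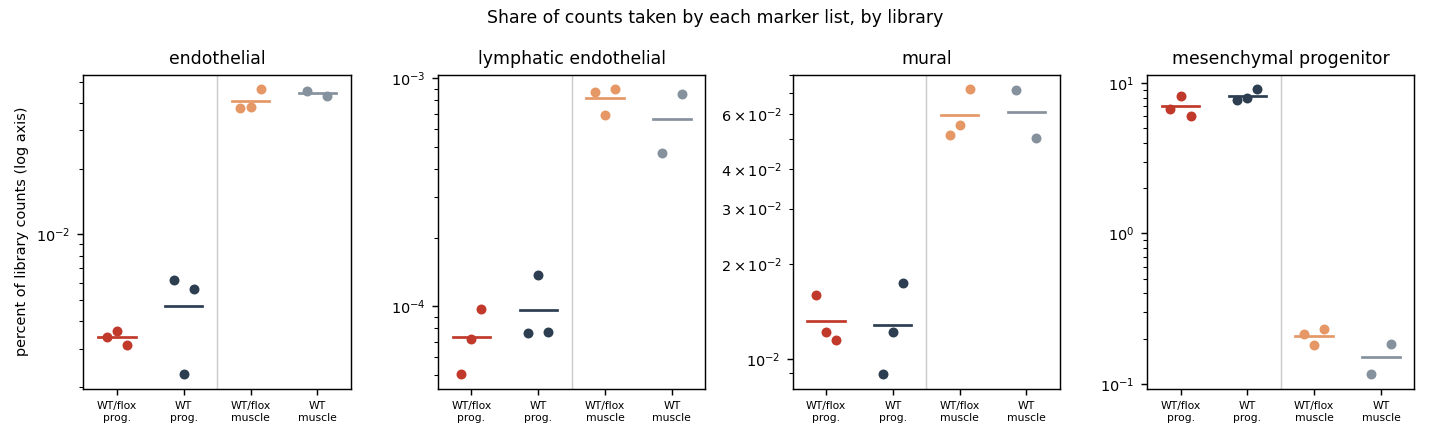
Percent of each library's counts taken by the endothelial, lymphatic endothelial, mural and mesenchymal progenitor marker lists (points are libraries, lines are group means, log axes). In progenitors the endothelial share spans 0.00312% to 0.00360% in WT/flox and 0.00229% to 0.00617% in WT, about an order of magnitude below muscle.

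Each gene was also set against the lists within a library, as a description; whether a cell type keeps such ratios between materials or genotypes was not tested. Per 100 counts of the endothelial list, Kdr had 241 to 488 counts in WT/flox progenitors and 11.9 to 15.6 in WT progenitors, beside 10.8 to 11.1 in WT/flox muscle and 8.75 to 16.4 in WT muscle. The WT progenitors thus fell inside the muscle range, and the WT/flox progenitors did not. The Kdr counts of the WT/flox progenitor libraries, 1207 to 2298, were 14.6 to 29.7 times the 68.9 to 82.4 counts that their endothelial markers would carry at the highest ratio found in any muscle library. In WT progenitors the same quotient was 0.726 to 0.947.

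Flt1, Tie1 and Pecam1 did not rise above their muscle ratios to the endothelial list in progenitors. Per 100 endothelial counts Flt1 had 10.2 to 13.0 in WT/flox and 4.78 to 13.0 in WT progenitors, Tie1 had 6.44 to 9.78 in WT/flox and 5.37 to 8.03 in WT, and Pecam1 had 15.1 to 18.6 in WT/flox and 10.4 to 17.9 in WT. None of these progenitor libraries exceeded the highest muscle ratio of its gene, 13.3 for Flt1, 11.5 for Tie1 and 21.2 for Pecam1. Some lay below the lowest muscle ratio, 8.24 for Flt1, 8.35 for Tie1 and 17.6 for Pecam1. Tek was far above its highest muscle ratio in both genotypes. It had 383 to 537 counts per 100 endothelial counts in WT/flox and 676 to 1485 in WT progenitors. Muscle had 4.95 to 5.29 in WT/flox and 4.95 to 6.65 in WT libraries.

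Cspg4 was set against the mural list in the same way. It had 21.4 to 25.4 counts per 100 mural counts in WT/flox and 55.5 to 186 in WT progenitors, beside 1.84 to 1.96 in WT/flox muscle and 2.40 to 4.14 in WT muscle. Progenitor libraries of both genotypes thus held more Cspg4 than their mural markers would carry at the highest muscle ratio, by 5.18 to 6.14 times in WT/flox and 13.4 to 44.8 times in WT. The exact two-sided permutation p for the difference between the genotypes in progenitors was 0.1 for Kdr, Tek and Cspg4 alike, the smallest that 3 against 3 allows. A ratio in muscle averages over all vessels, and one in a vascular cell type that the lists do not hold was not tested. Abcc9 alone had 2332 to 4742 counts in WT muscle, where the mural list summed to 8523 to 12229. In WT/flox muscle it had 3635 to 5829 counts, with list sums of 10029 to 13251. Whether cells other than mural cells add to the mural list in muscle was not tested.

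**Figure D4:**
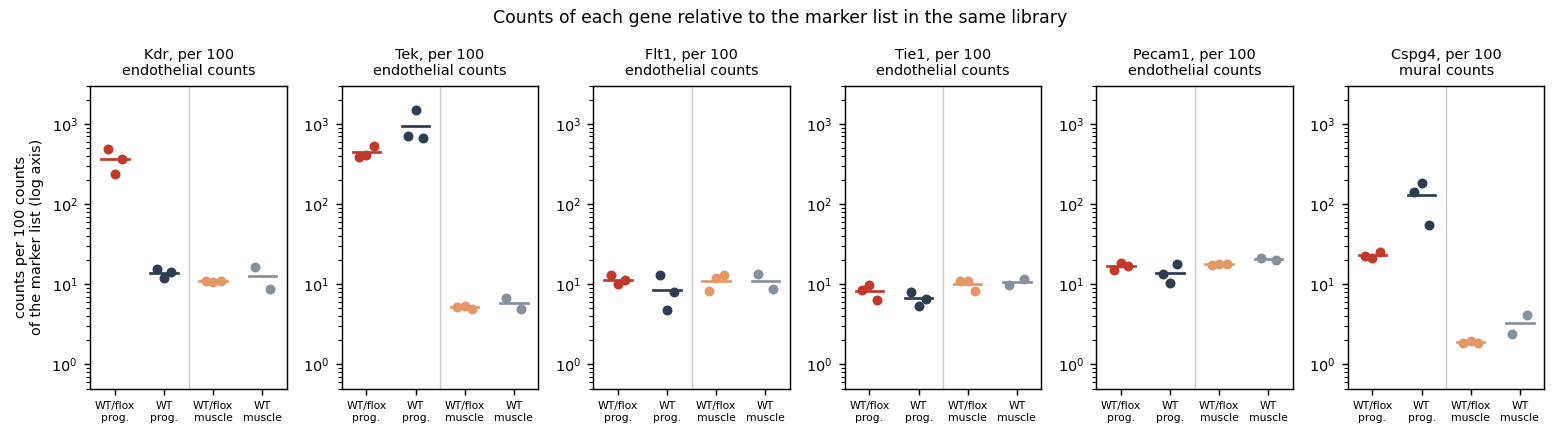
Counts of Kdr, Tek, Flt1, Tie1 and Pecam1 per 100 counts of the endothelial list, and of Cspg4 per 100 counts of the mural list, in every library (points; group means as lines; log axes). Kdr lies at 241 to 488 in WT/flox progenitors and at 11.9 to 15.6 in WT progenitors, near the muscle libraries. No progenitor point of Flt1, Tie1 or Pecam1 lies above the highest muscle point of its gene, and some lie below the lowest.

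The remaining marker lists were measured in the same way. In progenitors no marker was called of 3 immune (Cd68 and Lyz2 the most abundant), 4 glial (Cdh19 and S100b), 3 muscle stem cell (Vcam1 and Chodl), 7 myofibre (Acta1 and Tnnt3) and 10 mesenchymal progenitor (Gsn and Dcn) markers tested by edgeR. At an unadjusted p under 0.05 there were 0, 0, 1, 7 and 3 of them, and DESeq2 called 0, 0, 0, 3 and 2, and limma voom none. The myofibre list took 0.00185% to 0.00224% of counts in WT/flox and 0.00183% to 0.0118% in WT progenitors. Its median log2 fold change was -1.75. The muscle stem cell list did not overlap between the genotypes in either material, beside 16.9% of single genes in progenitors and 25.3% in muscle. It took 0.00303% to 0.00365% of counts in WT/flox and 0.00499% to 0.00567% in WT progenitors. In muscle it took 0.00997% to 0.0106% in WT/flox and 0.0133% to 0.0152% in WT. The exact permutation p was 0.1 in each material, the smallest allowed. Most counts of this list came from 1 gene in each material. Vcam1 had 530 to 631 counts in WT progenitors, with list sums of 730 to 858, and the filter removed Pax7 and Myf5. Itga7 had 1950 to 2279 counts in WT muscle, with list sums of 2269 to 2568. Log2 fold changes in muscle were -0.68 for Itga7, -0.22 for Vcam1, -0.02 for Chodl, 0.10 for Myf5 and 0.28 for Pax7. The myofibre share of muscle was 8.97% to 12.1% in WT/flox and 12.5% to 13.9% in WT. In muscle edgeR, DESeq2 and limma voom called none of the 14 endothelial and 12 mural markers, of which 2 and 3 had an unadjusted p under 0.05. There the 1 marker called by edgeR among all lists was the progenitor gene Cxcl14, with 149 to 152 CPM in WT/flox and 36.0 to 67.7 CPM in WT (log2 fold change 1.54, edgeR adjusted p = 0.0487), a call lost without any 1 of the WT/flox libraries or with library totals.

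Other genes of the pathways were then counted from lists that hold none of the 10 genes. These lists were chosen with earlier results of these data known, so the counts called in either material are a description. Of 12 VEGF pathway genes tested in progenitors, 4 passed higher and 0 lower, against 2.34% of all genes higher and 1.32% lower. They were the Flt4 ligand Vegfc, Ccbe1, which takes part in the maturation of Vegfc, the Flt1 ligand Pgf, and Nrp2, a co-receptor of Flt4 and Kdr. Nrp2 had 128, 176 and 231 CPM in WT/flox and 31.3, 18.0 and 21.4 CPM in WT (log2 fold change 2.92, SE 0.28, edgeR adjusted p = 3.4e-04). Vegfc had 61.1, 52.5 and 47.2 CPM in WT/flox and 16.9, 18.3 and 14.2 CPM in WT (log2 fold change 1.70, SE 0.17, edgeR adjusted p = 5.3e-04). The libraries of both genes were well apart, as with Kdr.

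Ccbe1 had 112, 113 and 182 CPM in WT/flox and 42.9, 34.7 and 42.5 CPM in WT (log2 fold change 1.76, SE 0.22, edgeR adjusted p = 0.00183). Pgf had 66.5, 97.8 and 108 CPM in WT/flox and 30.9, 29.2 and 51.1 CPM in WT (log2 fold change 1.29, SE 0.26, edgeR adjusted p = 0.0234), and that call was lost without 72B8, 74A2, 72B7 or 74A3. The median log2 fold change of the 12 tested genes was -0.03. Of 11 angiopoietin-Tie genes and 6 PDGF genes tested in progenitors none was called, with 5 and 2 at an unadjusted p under 0.05, 3 and 0 called by DESeq2 and none by limma voom.

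In muscle, 1 of 13 VEGF pathway genes was called, Vash2, with 19, 14 and 19 counts in WT/flox and 46 and 74 counts in WT (log2 fold change -2.07, edgeR adjusted p = 0.0385), beside 0.727% of all genes called (0.514% higher and 0.213% lower). At an unadjusted p under 0.05 there were 5 of the 13, DESeq2 called 1 and limma voom 0. Beside Vash2 these were Vash1, lower in WT/flox muscle (log2 fold change -0.61), and Ccbe1 (1.12), Pgf (0.89) and Vegfc (0.58), all higher. Their edgeR adjusted p-values ran from 0.131 to 0.481. Nrp2, also called in progenitors, had a log2 fold change of 0.10 in muscle. Of 11 angiopoietin-Tie genes 2 were called, both higher, with 5 at an unadjusted p under 0.05, 4 called by DESeq2 and 2 by limma voom. Svep1, a matrix protein that binds Tie1, had 18.9 to 22.4 CPM in WT/flox and 7.12 to 10.2 CPM in WT muscle (log2 fold change 1.26, edgeR adjusted p = 0.0376), and Foxo1, a transcription factor held back by Tek signalling in endothelium and active also in muscle fibres, had 52.6 to 58.2 CPM in WT/flox and 26.0 to 27.7 CPM in WT muscle (log2 fold change 1.03, edgeR adjusted p = 0.0213). All 3 calls were lost without 71B4 and without 71B5, those of Svep1 and Vash2 also without 71B3 and with library totals, and that of Vash2 also without 73A7 and by limma voom. Of 6 PDGF genes none had an unadjusted p under 0.05, and edgeR, DESeq2 and limma voom called none.

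**Figure D5:**
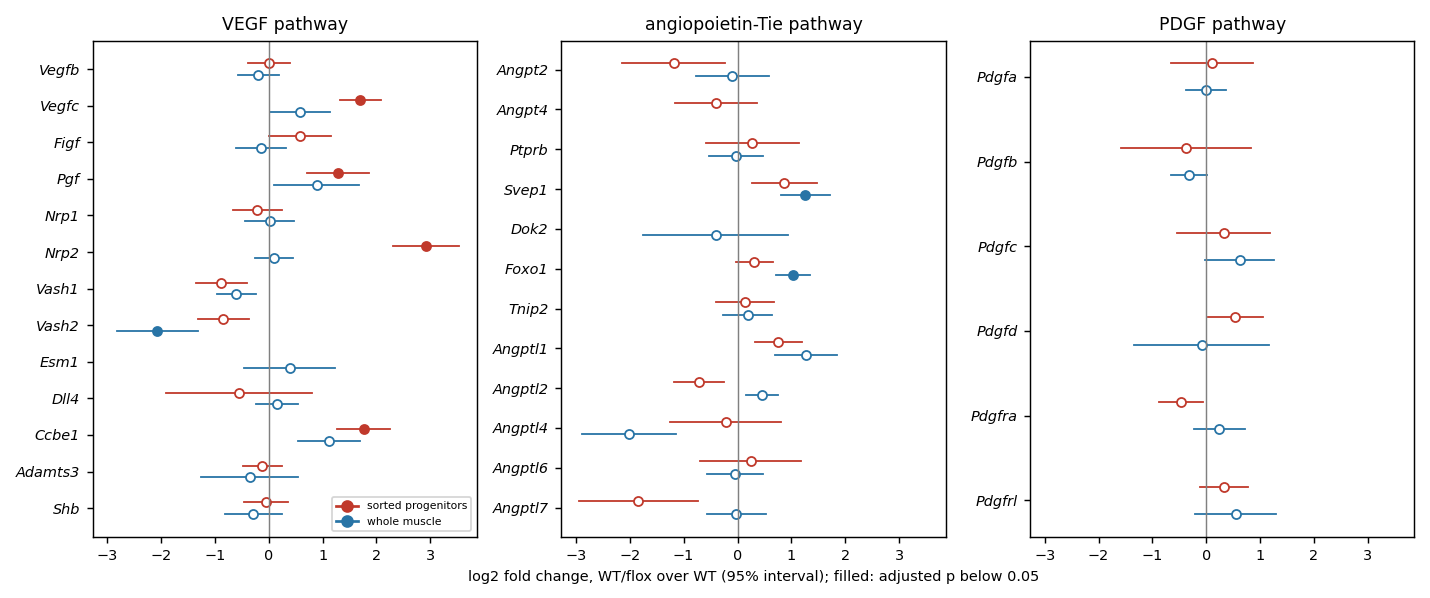
Log2 fold change of WT/flox over WT with its 95% interval for the other genes of the VEGF, angiopoietin-Tie and PDGF pathways, in progenitors (red) and muscle (blue); filled points have an edgeR adjusted p below 0.05. Nrp2 (2.92), Ccbe1 (1.76), Vegfc (1.70) and Pgf (1.29) are the filled progenitor points.

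For the 3 genes that changed in progenitors, the genes with the most similar pattern were taken as those with the smallest root-mean-square distance between centred log2 CPM over the 11 libraries, among 11245 genes. Nearest to Kdr were 9330159F19Rik at 0.62, the aryl hydrocarbon receptor Ahr at 0.83 and the TNF receptor family member Tnfrsf19 at 0.83. Nearest to Tek were the receptor tyrosine kinase feedback inhibitor Spry2 at 0.18, the cytokine receptor subunit Il20rb at 0.23 and the neuropeptide receptor Vipr2 at 0.26. Nearest to Cspg4 were the prostaglandin transporter Slco2a1 at 0.36, the lysosomal reductase Ifi30 at 0.42 and the interleukin-2 receptor subunit Il2ra at 0.44. The distances of the Kdr set were larger than those of the Tek set. The distance is not scaled to the range of a gene, and Kdr spanned a wider range than Tek. The sets can therefore not be ranked by closeness of pattern. In progenitors 9330159F19Rik (edgeR adjusted p = 0.0525) and Vipr2 (edgeR adjusted p = 0.0576) were not called. In CPM scaled over all 11 libraries, Spry2 had 83.0 to 105 in WT/flox and 216 to 238 in WT progenitors, and 17.2 to 19.0 in WT/flox and 19.7 to 21.3 in WT muscle.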

How the data were processed

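The deposited values are raw counts per gene symbol, 1 table for progenitors and 1 for muscle, and the authors' sample tables give sex and replicate as text. A stranded mRNA kit and paired reads of 43 bp were used, per the labels' protocols. Tools listed in the submitters' processing notes are STAR, Bowtie and bcl2fastq 2.20, with build mm10. How reads were counted is not given in the sources used here. In the deposited metadata the sample table of the lysates calls them FAPs, and the labels were followed. Lengths and coordinates come from GENCODE M21 and promoters from RefSeq.

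Within a material, WT/flox and WT were compared by a robust, two-sided quasi-likelihood F test in edgeR 4.0.16 under R 4.3.3, after filterByExpr and TMM scaling, with a Benjamini-Hochberg threshold of 0.05 over all genes tested. A joint fit of the 11 libraries gave the interaction and the contrast of WT materials. Alternatives used DESeq2 1.42.0, limma 3.58.1 voom, other scalings, no filter, sex as a term and libraries left out. CPM are TMM-scaled within a material. Each library is 1 animal, so p-values measure the spread between animals. Libraries of a group differed by more than counting noise, with a chi-square of 9.13 to 80.2 for each degree of freedom. Named genes are the 10 members, list genes called in either material, the 2 most abundant markers of each list and the 3 nearest patterns. The members and lists were chosen with earlier results of these data known. The fits were also run on simulated counts. These held no differences of sex, day or animal series, so that run does not address those limits.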

Additional observations from a re-analysis of the deposited data

Results flagged for a closer look

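The genotype difference was tested between the materials with the interaction term of the joint edgeR fit, and 6 of the members, listed genes and nearest-pattern genes differed. For Kdr the log2 fold change of WT/flox over WT was 4.62 higher in progenitors than in muscle (SE 0.56, adjusted p = 0.00166), it ran from 4.08 to 5.04 over the alternatives, and Kdr was higher in 3 of 3 WT/flox progenitor libraries than in any WT one. For Nrp2 the difference was 2.77 (SE 0.34, adjusted p = 0.00149), with 3 of 3 WT/flox progenitor libraries above all WT ones and overlapping muscle libraries. For Angptl2, an angiopoietin-like secreted protein, the difference was -1.21 (SE 0.26, adjusted p = 0.0470). Within neither material was its genotype difference called. It had 268 to 343 CPM in WT/flox and 401 to 610 CPM in WT progenitors, and 106 to 113 CPM in WT/flox and 78.7 to 80.4 CPM in WT muscle, so the libraries were apart in opposite directions in these materials. The Angptl2 call held in 1 of the 12 alternatives, the one without 73C3, and Angptl2 was named after its values were seen. Of the genes nearest to a member in pattern, Tnfrsf19 had a difference of 4.76 (adjusted p = 0.000264), Ahr of 2.57 (adjusted p = 0.0407) and Spry2 of -1.13 (adjusted p = 0.0298). They were picked for their likeness to a member over the same 11 libraries, so these values are a description. The call held in all 12 alternatives for Tnfrsf19 and in 4 of 12 each for Ahr and Spry2.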

How the results depend on the processing

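Kdr, Tek and Cspg4 were called in progenitors, in the same direction, under all 13 alternatives, with log2 fold changes of 3.85 to 4.56 for Kdr, -1.40 to -1.22 for Tek and -2.47 to -1.84 for Cspg4. The counts of called genes moved more. In progenitors 454 genes were called by edgeR, 755 by DESeq2, and 262 to 483 with 1 library left out. In muscle 92 were called, 267 by DESeq2, 54 with library totals, 139 without a filter on low counts, and 0 to 239 with 1 library left out; the 0, without 71B5, stands beside 1023 genes at an unadjusted p under 0.05. Of the members 0 were called lower in muscle, 1 by DESeq2, 1 without the filter, and 0 to 1 with a library left out. The interaction was called for 106 genes, and 54 to 114 with a library left out. Without 1 WT muscle library, the remaining one is assumed to vary like the other groups.

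Some members that were not called changed sign, and the cause was not tested. Pdgfrb in progenitors stayed below 0, as did Tek, Tie1, Pecam1, Pdgfrb and Cspg4 in muscle, while Angpt1 in muscle stayed above 0. In progenitors Flt1 was 0.25 by limma voom, 0.087 with the replicate block, 0.049 with sex as a term and -0.64 to 0.50 with a library left out. Tie1 was 0.024 by limma voom and -0.57 to 0.23 with a library left out. Angpt1 was -0.030 with library totals and -0.059 to 0.091 with a library left out, where Vegfa ran from -0.27 to 0.20 and Pecam1 from -0.65 to 0.15. In muscle, with a library left out, Kdr ran from -0.83 to 0.080, Flt1 from -0.50 to 0.10, Flt4 from -0.15 to 0.11 (0.11 also with library totals) and Vegfa from -0.25 to 0.47. The interaction then ran from -0.46 to 0.64 for Flt1, -0.31 to 0.46 for Tie1, -0.59 to 0.17 for Vegfa and -0.27 to 0.59 for Pecam1, and the WT material contrast of Angpt1 from -0.17 to 0.52.

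The replicate numbers of the deposited sample tables, used in a fit chosen after the data were seen, gave correlations of deviations of 0.29, 0.03 and -0.13. So few values cannot tell whether the numbers pair the libraries. The numbers join 74A1 with 74A2, both female, and 72B7 with 72B8 and 74A3 with 73C3, all male. With them as a replicate block 491 genes were called, the same 3 members among them. Of the members, 9 in progenitors rest on 3 against 3 libraries, and Flt1, Flt4, Tie1 and Pecam1 on few counts, so small differences were not detectable at this depth. The muscle comparison rests on 3 against 2.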
